A study of Mus musculus with 6 samples.

Results

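The erythroid genes are 9 genes that mark red cells and their precursors: the adult haemoglobin chains Hba-a1, Hba-a2, Hbb-bs and Hbb-bt, the haem synthesis gene Alas2, the membrane anion exchanger gene Slc4a1, the erythropoietin receptor gene Epor, and the transcription factor genes Klf1 and Gata1. They were taken by symbol from a table of 35977 genes, and all 9 had a row. Messenger RNA of bulk mouse liver was sequenced from mice given an adeno-associated virus of serotype 9. In the Cre-miR122 group (3 libraries, replicates 1, 2 and 4) the vector was AAV-Tnnt2-Cre-miR122: Cre recombinase under the Tnnt2 promoter, which is active in heart muscle, with added target sites for miR-122, the most abundant hepatocyte microRNA. In the Cre group (3 libraries, replicates 10, 11 and 12) it was AAV-Tnnt2-Cre, the same kind of vector without those sites. The labels give no strain, age, dose or time after injection, no group without Cre was analysed here, and the labels do not say that the libraries came from separate animals, so p-values measure only the spread between these samples.

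The liver is the main site of red cell production before birth, and that activity fades around birth as the bone marrow takes over, so a young liver can still hold erythroblasts. Erythropoietin, bound by its receptor, keeps erythroid progenitors alive, and GATA1 and KLF1 then switch on the globin, haem and membrane genes. Circulating reticulocytes have lost the nucleus but still carry globin, Alas2 and Slc4a1 messenger RNA, and any blood left in a piece of liver brings that RNA with it.

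Libraries held between 20340994 and 20817837 counts. The tissue label held, with Alb at 112256 ± 2629 CPM in Cre-miR122 livers and 106733 ± 12095 CPM in Cre livers (CPM, counts scaled to library size; SD, n = 3 each). The fetal RNA H19 was abundant, at 9312 ± 246 CPM in Cre-miR122 livers and 6918 ± 861 CPM in Cre livers. Cre RNA itself had 12, 16 and 10 counts in Cre-miR122 livers, against 61, 50 and 37 counts in Cre livers, so the groups did not overlap and the labels held. Cre replicate 10 stood apart in its sex-linked genes, with 5 counts of Xist and 1676 of the Y-linked Ddx3y, against at most 1 count of Ddx3y in the other libraries. The fold changes of the erythroid genes are also plotted without it.

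To show what precedes these genes in the genome, the 250 bases before the start site are printed for a beta globin, an alpha globin, the haem synthesis gene, a transcription factor and the receptor (RefSeq, GRCm38.p6, 5′ to 3′ on the gene's strand). Capitals mark AGATAA or TGATAA, the letters that GATA factors bind, and CACCC, the core that KLF1 binds, on either strand. The windows are chr7:103827929-103828178 (minus strand) for Hbb-bs, chr11:32283422-32283671 (plus) for Hba-a1, chrX:150547167-150547416 (plus) for Alas2, chr8:84901732-84901981 (plus) for Klf1 and chr9:21963577-21963826 (minus) for Epor. The RefSeq start of Klf1 lies inside the gene span used for counting, chr8:84901928-84905295, so the end of its window does too.
Hbb-bs: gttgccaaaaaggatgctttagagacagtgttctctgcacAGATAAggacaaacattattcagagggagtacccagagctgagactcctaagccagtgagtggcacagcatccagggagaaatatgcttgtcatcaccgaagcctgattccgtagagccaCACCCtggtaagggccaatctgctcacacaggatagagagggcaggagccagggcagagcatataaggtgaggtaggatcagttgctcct
Hba-a1: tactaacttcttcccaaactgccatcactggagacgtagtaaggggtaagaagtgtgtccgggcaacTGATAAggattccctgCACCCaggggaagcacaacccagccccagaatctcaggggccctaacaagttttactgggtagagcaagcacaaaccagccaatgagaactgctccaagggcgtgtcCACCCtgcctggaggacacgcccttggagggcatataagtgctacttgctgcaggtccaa
Alas2: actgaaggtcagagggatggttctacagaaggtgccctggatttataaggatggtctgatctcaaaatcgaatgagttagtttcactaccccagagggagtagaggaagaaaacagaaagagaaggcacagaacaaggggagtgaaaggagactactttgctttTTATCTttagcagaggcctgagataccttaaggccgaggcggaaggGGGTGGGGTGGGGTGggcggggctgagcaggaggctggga
Klf1: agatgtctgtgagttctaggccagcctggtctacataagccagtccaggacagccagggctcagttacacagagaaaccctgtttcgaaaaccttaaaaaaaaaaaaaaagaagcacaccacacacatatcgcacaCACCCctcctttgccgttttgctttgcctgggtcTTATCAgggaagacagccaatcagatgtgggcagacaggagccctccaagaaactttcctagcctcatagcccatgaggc
Epor: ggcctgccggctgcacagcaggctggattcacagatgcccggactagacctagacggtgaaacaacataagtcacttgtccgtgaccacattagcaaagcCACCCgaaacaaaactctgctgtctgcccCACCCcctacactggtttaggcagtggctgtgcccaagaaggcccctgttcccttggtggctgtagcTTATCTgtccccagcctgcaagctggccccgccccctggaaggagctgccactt

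Promoter sequences were at hand for 8 of the 9 genes, all but Slc4a1. A GATA motif stood in 6 of the 8 windows (75%) against 16.6% of 32851 promoter windows of the same length, and CACCC stood in all 8 (100%) against 52.0%. Both stood in 6 of 8, against 7.11% of all windows. The windows of Hba-a1 and Hba-a2 hold the same sequence, offset by a few bases, so the 8 windows are not independent. Hbb-bt and Gata1 had CACCC without the GATA letters in these windows. The Gata1 window, chrX:7967911-7968160, lies wholly within the gene span used for counting. In Alas2 the 3 CACCC matches lay on the opposite strand, within 40 bases of the start site, and abut in 1 GC-rich stretch. In Epor, the receptor gene, the GATA match lay 54 bases before the start site. These are matches of letters only.

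The adult globin pairs are hard to tell apart by sequencing. The coding sequences of Hba-a1 and Hba-a2 differed at 1 of 426 bases (99.8% identity, C381T, counted from the A of the start codon, Hba-a1 base first) and shared an unbroken run of 380 bases. Those of Hbb-bs and Hbb-bt differed at 1 of 441 bases (99.8% identity, C417T, Hbb-bs base first), with a shared run of 416 bases. The coding stretch around each difference is shown with the differing base in capitals (GENCODE M21, GRCm38; chr11:32284313-32284373 and chr11:32297130-32297190, plus strand; chr7:103826668-103826722 and chr7:103812659-103812713, minus strand).
Hba-a1: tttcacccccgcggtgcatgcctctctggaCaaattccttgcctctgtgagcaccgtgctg
Hba-a2: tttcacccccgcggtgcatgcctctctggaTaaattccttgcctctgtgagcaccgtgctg
Hbb-bs: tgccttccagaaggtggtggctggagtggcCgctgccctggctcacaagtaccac
Hbb-bt: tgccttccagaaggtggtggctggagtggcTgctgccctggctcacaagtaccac

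How the counting dealt with reads that fit more than 1 copy is not stated in the labels, so the split within each pair is uncertain, and the 4 genes are also given as a sum. If such reads were left uncounted, the sum is too low as well. Its share of all counts, the ratio of beta to alpha chains and counts per 100 globin counts would then be affected too.

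Adult globin made up a small part of the counts and differed more between libraries of one group than between the vectors. Counts on the 4 genes together were 6413, 9205 and 8454 in Cre-miR122 replicates 1, 2 and 4, and 3862, 7690 and 10635 in Cre replicates 10, 11 and 12. The lowest and the highest library were both Cre livers, and the 3 Cre-miR122 libraries lay between them. As a share of all counts this was 0.0389% ± 0.00674 in Cre-miR122 livers and 0.0362% ± 0.0165 in Cre livers (SD, n = 3 each). The Wilson 95% interval, which covers counting error only, was 0.0184% to 0.0196% in Cre replicate 10 and 0.0509% to 0.0528% in Cre replicate 12. Without Cre replicate 10 the Cre mean was 0.0448%, and the ratio of Cre-miR122 over Cre was 0.867, against 1.07 with all libraries. In bulk tissue, fewer red cells and less RNA per cell cannot be told apart, and neither can blood left in the sample and cells made in the liver.

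Among the beta chains, Hbb-bs (chr7:103826523-103827928, GRCm38 as for all gene positions given here) had 166, 244 and 218 CPM in Cre-miR122 replicates 1, 2 and 4, against 99.9, 193 and 288 CPM in Cre replicates 10, 11 and 12. Its log2 fold change of Cre-miR122 minus Cre was 0.11 (SE 0.31). Hbb-bt (chr7:103812524-103813923) had 32.3, 41.9 and 40.6 CPM in the Cre-miR122 libraries, against 15.6, 36.5 and 55.4 CPM in the Cre libraries (log2 fold change 0.096, SE 0.35). For both genes the Cre group enclosed the Cre-miR122 group. Among the alpha chains, Hba-a1 (chr11:32283672-32284486) had 115, 152 and 141 CPM in Cre-miR122 livers, against 71.3, 121 and 180 CPM in Cre livers (log2 fold change 0.13, SE 0.27). Hba-a2 (chr11:32296492-32297310) had 6.68, 7.16 and 9.05 CPM in Cre-miR122 livers, against 4.56, 7.50 and 8.20 CPM in Cre livers (log2 fold change 0.18, SE 0.22). The groups overlapped for all 4 genes.

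**Figure D1:**
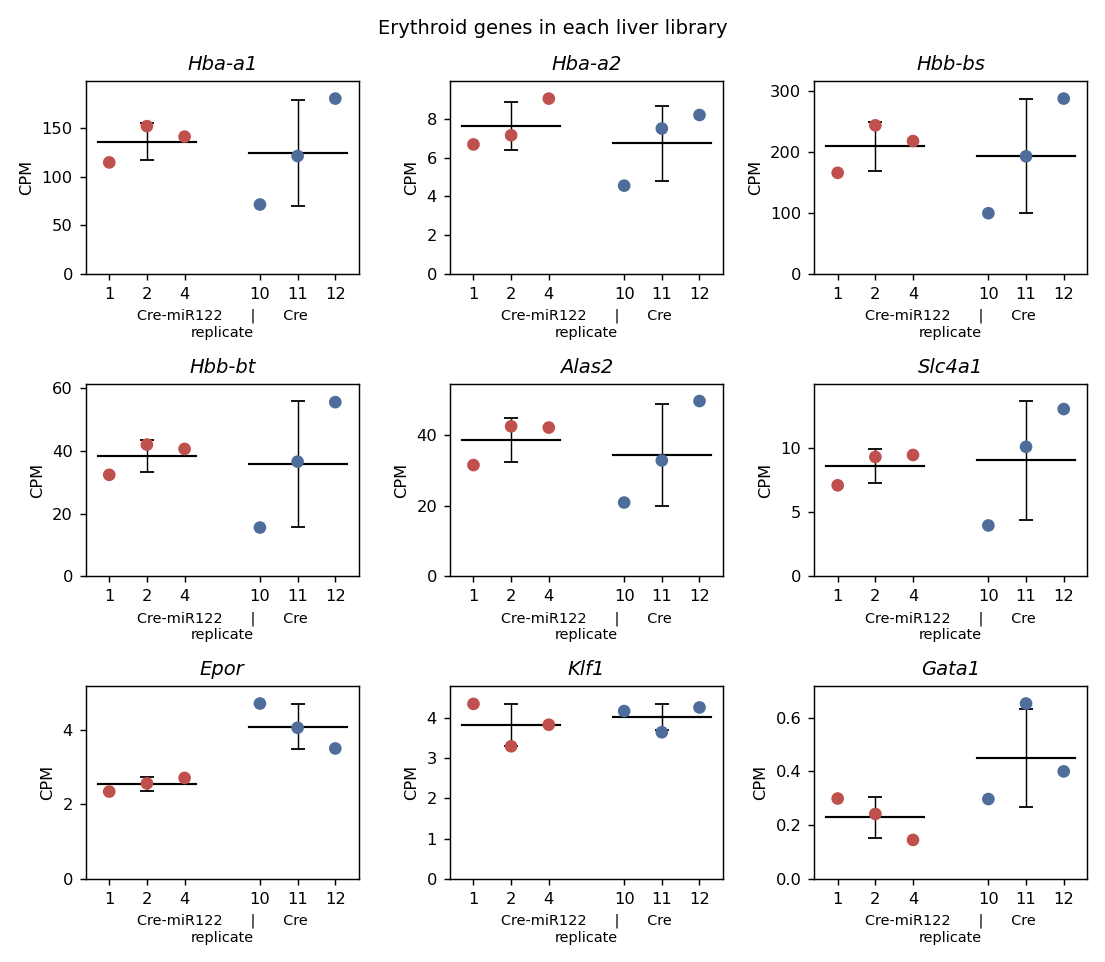
CPM of each of the 9 erythroid genes (vertical axis, linear from 0) in the 3 Cre-miR122 libraries (red, left) and the 3 Cre libraries (blue, right), with the mean as a line and the SD as a bar. For the globins, Alas2 and Slc4a1 the Cre libraries enclose or overlap the Cre-miR122 libraries; for Epor every Cre-miR122 library (at most 2.71 CPM) lies under every Cre library (at least 3.50 CPM).

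The make-up of the globin RNA was steadier than its amount. The ratio of beta to alpha chains, per base of gene length, was 1.51 ± 0.0712 in Cre-miR122 livers and 1.5 ± 0.145 in Cre livers (SD, n = 3 each). Its lowest value was 1.33, in Cre replicate 10, and its highest 1.60, in Cre replicate 12, a 1.2-fold span where total globin CPM spanned 2.78-fold. Counts of Hba-a1 exceeded those of Hba-a2 by 15.6 to 21.96 times over the 6 libraries, and Hbb-bs exceeded Hbb-bt by 5.14 to 6.42 times. Embryonic globin RNA was not detected: Hbb-y, Hbb-bh1, Hbb-bh2 and Hba-x, which serve embryonic red cells, had 0 counts in each of the 6 libraries, which allows up to 0.150 CPM in a library (a limit of 3 counts). The theta-like Hbq1b had 5, 5 and 7 counts in Cre-miR122 livers and 3, 12 and 8 in Cre livers.

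Alas2, the erythroid form of the first enzyme of haem synthesis, followed the globins closely. It lies at chrX:150547417-150570622 and had 31.6, 42.6 and 42.2 CPM in Cre-miR122 livers, against 21.0, 32.9 and 49.7 CPM in Cre livers. The Cre group enclosed the Cre-miR122 group, with a log2 fold change of 0.17 (SE 0.26). For every 100 globin counts there were 9.56 to 10.3 Alas2 counts in Cre-miR122 livers and 9.17 to 10.95 in Cre livers, a 1.19-fold span. In the table's gene models, exons of Alas2 share 48 of their 1979 bases with an exon of Apex2, a DNA repair gene on the other strand, which had 10.3 ± 1.73 CPM in Cre-miR122 livers and 9.48 ± 0.974 CPM in Cre livers; whether the counting used strand is not stated in the labels. Alas1, the form that all tissues use and that serves hepatocyte cytochromes, was at 276 ± 107 CPM in Cre-miR122 livers and 384 ± 123 CPM in Cre livers, its lowest library being Cre-miR122 replicate 2.

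Slc4a1, which encodes band 3, the chloride and bicarbonate exchanger of the red cell membrane (chr11:102348820-102365281), had 7.08, 9.28 and 9.44 CPM in Cre-miR122 livers, against 3.96, 10.1 and 13.0 CPM in Cre livers. The groups overlapped (log2 fold change -0.067, SE 0.34). Per 100 globin counts it stood at 2.20 ± 0.111 in Cre-miR122 livers and 2.44 ± 0.369 in Cre livers (SD, n = 3 each). Its log2 fold change turned above 0 in 4 of 16 alternatives, 3 of them fits without 1 library and the other limma-voom.

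Epor was the 1 gene of the 9 whose groups did not overlap. The gene (chr9:21958897-21963576) had 47, 53 and 56 counts in Cre-miR122 replicates 1, 2 and 4, against 95, 87 and 70 counts in Cre replicates 10, 11 and 12. That is 2.34, 2.56 and 2.71 CPM in Cre-miR122 livers, against 4.71, 4.06 and 3.50 CPM in Cre livers. The highest Epor value was in Cre replicate 10, the library with the least globin. Among Cre-miR122 livers, by contrast, replicate 1 had both the least globin and the lowest Epor. The Cre mean was 1.61 times the Cre-miR122 mean (log2 fold change -0.69, SE 0.17). Its unadjusted edgeR p was 0.00303, but the edgeR adjusted p over all 14374 tested genes was 0.816, so it did not pass the test. The exact two-sided permutation test gave p = 0.1, the smallest that 3 libraries against 3 allow. The exact 95% Poisson interval of the highest Cre-miR122 count, 56, ran from 42.3 to 72.7, which overlaps the 54.6 to 88.4 of the lowest Cre count, 70. The log2 fold change lay between -0.78 and -0.57 when each library was left out in turn, with -0.57 without Cre replicate 10.

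Of the 8 erythroid genes tested edgeR called 0 at an adjusted p under 0.05, as did DESeq2 and limma-voom. Over all genes tested edgeR called 0%, limma-voom 0 genes and DESeq2 3 genes. At an unadjusted p under 0.05 edgeR gave 1 of the 8 genes tested, Epor, and 5.41% of all genes. The groups did not overlap for 1 of the 8, again Epor, and for 11.1% of all genes. The median log2 fold change of the 8 was 0.10, against -0.0029 over all genes, and it was -0.17 without Cre replicate 10 and 0.42 without Cre replicate 12.

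**Figure D2:**
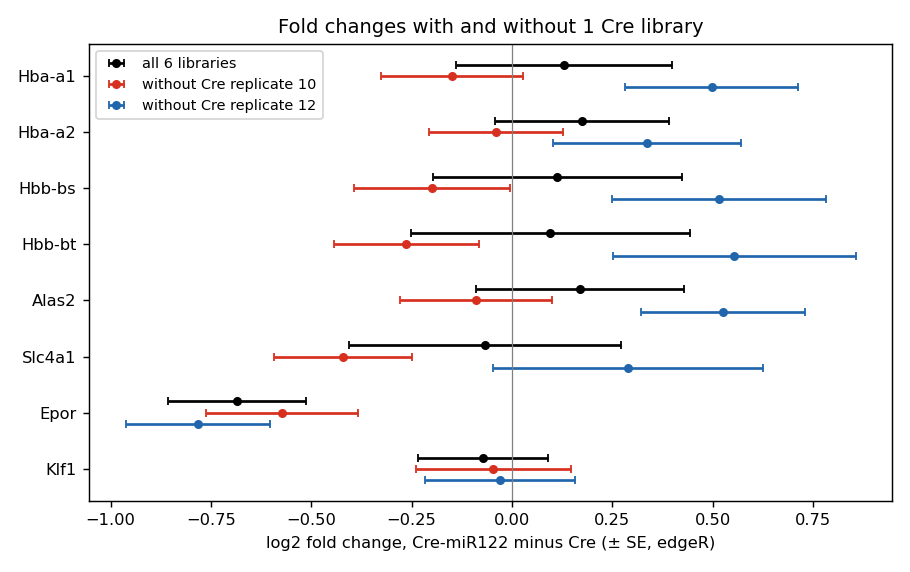
Log2 fold change of Cre-miR122 minus Cre (horizontal axis, with its standard error as a bar) for the 8 erythroid genes tested, from all 6 libraries (black), without Cre replicate 10 (red) and without Cre replicate 12 (blue). The 4 globins and Alas2 lie above 0 with all libraries and below 0 without Cre replicate 10; Epor lies between -0.78 and -0.57 in these fits.

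Of the transcription factor genes, Klf1 did not follow the globins, and Gata1 had too few counts to tell. Klf1, which switches on adult beta globin (chr8:84901928-84905295), had 4.34, 3.29 and 3.82 CPM in Cre-miR122 livers, against 4.16, 3.64 and 4.25 CPM in Cre livers. The groups overlapped, and the highest library was only 1.32 times the lowest (log2 fold change -0.073, SE 0.16). In Cre replicate 10, where every globin was at its lowest, Klf1 stood at 4.16 CPM, above its mean of 3.92 CPM over the 6 libraries. Counts of Klf1 per 100 globin counts therefore ran from 0.739 in Cre-miR122 replicate 2 to 2.18 in Cre replicate 10. Gata1, the factor that erythroid precursors need to mature (chrX:7959260-7976682), was near the limit of detection, with 6, 5 and 3 counts in Cre-miR122 livers and 6, 14 and 8 counts in Cre livers. It did not pass the filter on low counts. With no filter its log2 fold change was -0.96 (SE 0.50), with an unadjusted edgeR p of 0.0708 and an edgeR adjusted p of 0.813. Exact 95% Poisson intervals were 0.619 to 8.77 for the lowest count and 7.65 to 23.5 for the highest, and the groups overlapped.

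Per base of gene length, as TPM (counts scaled by gene length and library) averaged over the 6 libraries, the level was highest for Hbb-bs at 650 TPM, followed by Hba-a1 at 479 TPM, Hbb-bt at 121 TPM, Alas2 at 38.1 TPM and Hba-a2 at 26.3 TPM. Then came Klf1 at 5.24 TPM, Slc4a1 at 3.99 TPM, Epor at 2.37 TPM and Gata1 at 0.332 TPM. The order of neighbours held in all 6 libraries except for Klf1 over Slc4a1 and Slc4a1 over Epor, which held in 5 of 6. The ranges over libraries overlapped for 5 of the 8 neighbouring pairs and were separate for Hba-a1 over Hbb-bt, Hba-a2 over Klf1 and Epor over Gata1. The places of the globin genes in this order depend on how reads that fit several copies were counted, which is not stated. A steady order over libraries does not remove that limit.

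The 4 globins, Alas2 and Slc4a1 shared 1 pattern over the libraries. All 6 were lowest in Cre replicate 10, by 0.62 (Hba-a2) to 1.15 (Hbb-bt) below their own mean on the log2 scale. Of them 5 were highest in Cre replicate 12, and Hba-a2 was highest in Cre-miR122 replicate 4. These 6 were picked out by their shared pattern. Of all 8 erythroid genes tested, 6 were lowest in Cre replicate 10 and 5 highest in Cre replicate 12. Because the coding sequences within each globin pair are nearly identical, the 4 globin rows are not independent. Over all genes tested 15.8% were lowest in Cre replicate 10, 13.2% highest in Cre replicate 12, and 3.27% both. Their spread was wide: the highest library held 2.37 times the lowest for Alas2, and among 3853 genes of 30 to 300 CPM 1.35% spanned as much, the median span being 1.23-fold. Cre replicate 10 is the library with Y-linked RNA, and with 1 such library sex cannot be told apart from other differences of that sample.

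**Figure D3:**
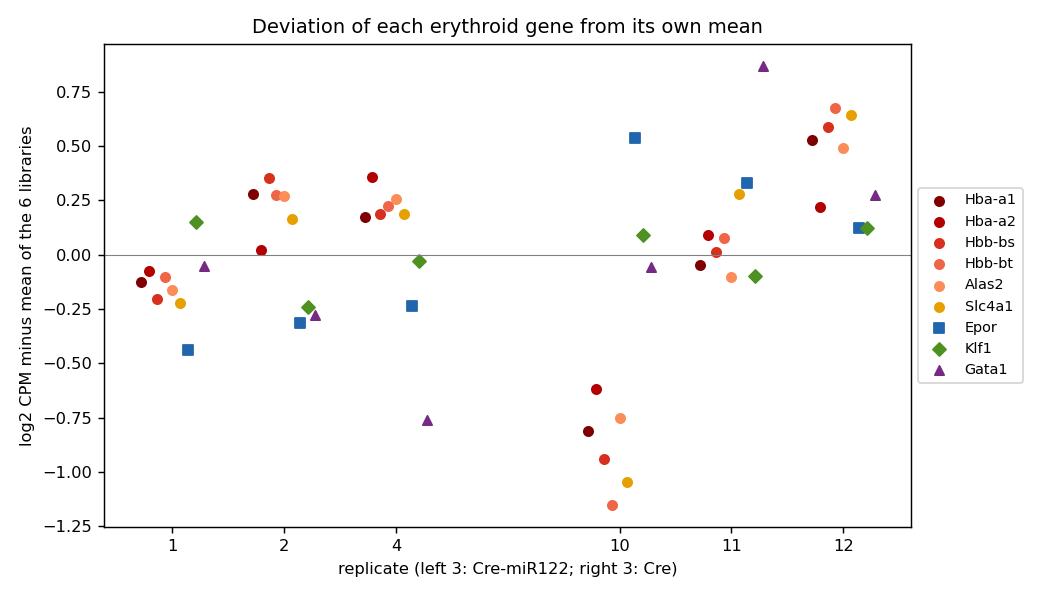
Log2 CPM of each erythroid gene minus its own mean over the 6 libraries (vertical axis), for the 3 Cre-miR122 libraries (left) and the 3 Cre libraries (right); circles are the globins, Alas2 and Slc4a1. The circles lie together in each library, lowest in Cre replicate 10 and mostly highest in Cre replicate 12, while Epor, Klf1 and Gata1 (square, diamond and triangle) do not share that low point: in Cre replicate 10 they stand at 0.54, 0.092 and -0.058.

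Erythropoietin itself, the hormone that the liver makes before birth and the kidney afterwards, was rare. Epo had 2, 3 and 4 counts in Cre-miR122 livers, against 17, 2 and 4 counts in Cre replicates 10, 11 and 12. The 17 counts (exact 95% Poisson interval 9.90 to 27.2, 0.842 CPM) stood in the library with the least globin and the most Epor, and the intervals of the other 5 libraries ended at or below 10.2. Epo did not pass the filter on low counts. Erythroferrone (listed as Fam132b), the hormone by which erythroblasts hold down hepcidin, had at most 4 counts in any library.

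**Figure D4:**
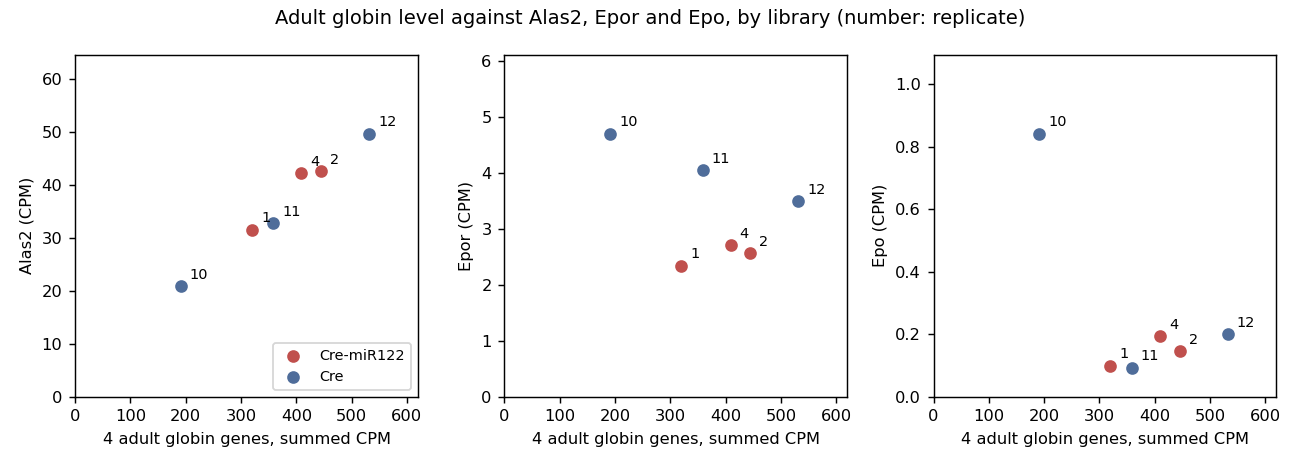
Summed CPM of the 4 adult globin genes (horizontal axis) against the CPM of Alas2, Epor and Epo (vertical axes, linear from 0) in each Cre-miR122 library (red) and each Cre library (blue), with the replicate number beside each point. Alas2 is higher where globin is higher. Epor and Epo are highest in Cre replicate 10, which has the least globin, and Cre-miR122 libraries lie lowest for Epor. Among Cre-miR122 libraries, replicate 1 has both the least globin and the lowest Epor.

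Other erythroid genes were read from fixed lists, and edgeR called 0 of them, with DESeq2 and limma-voom also at 0. Over all 14 lists edgeR tested 137 genes, of which 15 were higher and 17 lower at an unadjusted p under 0.05 (23.4%, against 5.41% of all genes). Of those 32 genes, 8 were on the B lineage list and 9 on the mitosis list, and the lists were chosen with earlier results of these data known, so this share supports nothing by itself. Of 16 red cell membrane and blood group genes 10 were tested, of which 3 lay above 0 and 7 below in log2 fold change (median -0.25). It was -0.44 without Cre replicate 10 and 0.066 without Cre replicate 12. Of the 10 genes tested 5 were lowest in Cre replicate 10 and 5 highest in Cre replicate 12, the libraries where most globins were lowest and highest. The most abundant of the list were Epb41 at 139 ± 12 CPM in Cre-miR122 livers and 129 ± 15.1 CPM in Cre livers, Gypc at 10.9 ± 0.986 and 9.85 ± 1.67 CPM, and Sptb at 7.49 ± 1.23 and 6.24 ± 1.79 CPM in the same order. These 3 are also used outside red cells. Kel, a blood group gene singled out after its values were seen, had 9, 4 and 9 counts in Cre-miR122 livers and 12, 20 and 17 in Cre livers (log2 fold change -1.13, SE 0.38, edgeR adjusted p = 0.816).

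Haem synthesis and mitochondrial iron genes, which hepatocytes share, lay near 0: of 14 tested 6 lay above 0 and 8 below, with a median of -0.021 (-0.047 to 0.0070 with each library left out). Clpx, a mitochondrial protease subunit that acts on ALAS, was at 364 ± 20.6 CPM in Cre-miR122 livers and 333 ± 60.1 CPM in Cre livers. The transferrin receptor gene Tfrc was at 210 ± 41.1 CPM in Cre-miR122 livers and 195 ± 2.44 CPM in Cre livers, and Cpox, a later enzyme of the pathway, at 190 ± 4.45 and 181 ± 9.85 CPM. Of 13 erythroid maturation genes 11 were tested, 5 above 0 and 6 below (median -0.0091, but 0.27 when Cre replicate 12 was left out and 0.15 when Cre-miR122 replicate 1 was), and the most abundant were Fam210b (138 ± 12.1 CPM in Cre-miR122 livers and 121 ± 18.9 CPM in Cre livers), Bnip3l and the carbonic anhydrase gene Car2 (53.4 ± 6.17 and 61.0 ± 5.39 CPM). Bnip3l, which serves the clearing of mitochondria from reticulocytes but is used in many tissues, was at 71.8 ± 1.21 CPM in Cre-miR122 livers and 62.4 ± 6.0 CPM in Cre livers (groups not overlapping, log2 fold change 0.20, SE 0.088, edgeR adjusted p = 0.816).

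Of the other erythroid transcription factor genes 12 were tested, 3 above 0 and 9 below, with a median of -0.20 (-0.087 when Cre replicate 11 was left out and -0.11 when Cre-miR122 replicate 4 was). The most abundant were Ldb1 (57.3 ± 7.90 CPM in Cre-miR122 livers and 57.8 ± 2.10 CPM in Cre livers), Zbtb7a (38.6 ± 3.81 and 35.6 ± 1.91 CPM) and Zfpm1, the GATA1 partner FOG1 (20.3 ± 4.14 and 25.2 ± 0.459 CPM). Zfpm1 did not overlap between the groups (log2 fold change -0.31, SE 0.13, edgeR adjusted p = 0.816). Of the genes around the receptor's signal 10 were tested, 6 above 0 and 4 below (median 0.041). That median was 0.23 without Cre replicate 12, and it was below 0 without Cre replicate 10 (-0.017), Cre replicate 11 (-0.0060) or Cre-miR122 replicate 2 (-0.012). Stat5b, the transducer of the receptor, was at 110 ± 13.0 CPM in Cre-miR122 livers and 104 ± 18.5 CPM in Cre livers, and its target Cish at 41.2 ± 24.5 and 47.0 ± 26.3 CPM. The survival gene Bcl2l1 was at 43.3 ± 1.72 and 36.6 ± 6.04 CPM, and Kit, the progenitor receptor, at 8.37 ± 0.968 and 7.46 ± 1.56 CPM. None of these lists holds red cell genes alone, and in bulk liver the cells that their RNA came from cannot be told apart.

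**Figure D5:**
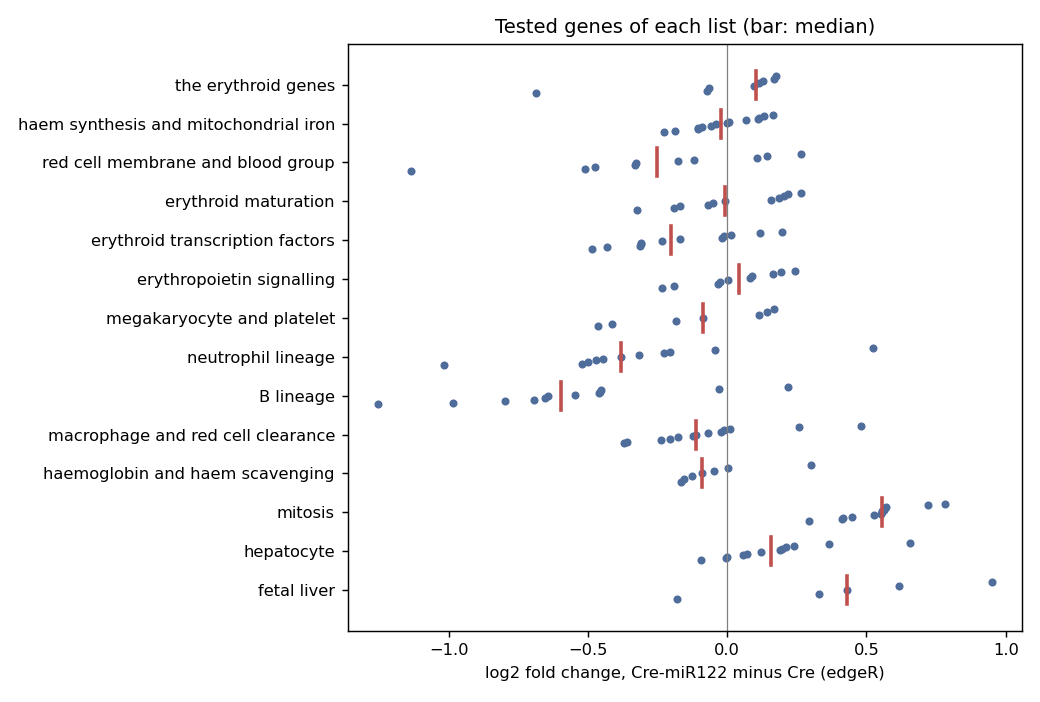
Log2 fold change of Cre-miR122 minus Cre (horizontal axis) for each tested gene (points) of the erythroid genes and of the lists, with the median of each list as a red bar. Medians of the erythroid lists lie between -0.25 and 0.041 beside 0.10 for the 8 erythroid genes, while B lineage genes have a median of -0.60 and mitosis genes one of 0.56.

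B lineage and neutrophil markers were, in sum, lower in every Cre-miR122 library than in every Cre library, as Epor was, and their part in the Epor difference was not tested. Of 12 B lineage genes tested 11 lay below 0 with a median of -0.60. Over all 14374 genes tested 7096 lay above 0 and 7278 below, and the lists were chosen with earlier results of these data known. The summed level of all 14 on the list was 19.998 to 25.9 CPM in Cre-miR122 livers and 32.1 to 40.0 CPM in Cre livers. No marker was at 0 in all libraries. Cd79b, a part of the B cell receptor, was at 3.46 ± 0.537 CPM in Cre-miR122 livers and 5.07 ± 0.608 CPM in Cre livers (log2 fold change -0.55, SE 0.17). Of 11 neutrophil lineage genes tested 10 lay below 0 (median -0.38), and the 15 on the list summed to 24.0 to 26.3 CPM in Cre-miR122 livers and 26.9 to 34.4 CPM in Cre livers, with Ngp, S100a9 and Csf3r leading. The megakaryocyte and platelet list, the lineage nearest to red cells, had 3 genes above 0 and 4 below (median -0.085; -0.19 when Cre replicate 10 was left out, 0.14 when 11 was and 0.030 when 12 was), and its 12 genes, led by Itgb3, Itga2b and Ppbp, summed to 32.6 to 42.7 CPM in Cre-miR122 livers and 33.7 to 40.4 CPM in Cre livers. All 13 mitosis genes lay above 0 (median 0.56, and 0.32 without Cre replicate 11), summing to 245 to 333 CPM in Cre-miR122 livers and 149 to 262 CPM in Cre livers.

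Genes that handle old red cells and free haemoglobin were read as well. Of 13 macrophage and red cell clearance genes 3 lay above 0 and 10 below, with a median of -0.11 (-0.0081 when Cre replicate 11 was left out and -0.057 when Cre-miR122 replicate 1 was). Slc40a1, the iron exporter ferroportin, was at 231 ± 8.36 CPM in Cre-miR122 livers and 233 ± 16.2 CPM in Cre livers, the Kupffer cell lectin gene Clec4f at 145 ± 9.82 and 167 ± 20.4 CPM, and Cd5l at 108 ± 25.3 and 127 ± 17.4 CPM. Of 7 haemoglobin and haem scavenging genes 2 lay above 0 and 5 below (median -0.091, and -0.16 to -0.039 with each library left out). The haem carrier gene Hpx was at 3905 ± 164 CPM in Cre-miR122 livers and 4263 ± 445 CPM in Cre livers, the haemoglobin carrier gene Hp at 3822 ± 332 and 3814 ± 384 CPM, and the ferritin light chain gene Ftl1 at 863 ± 42.6 and 959 ± 65.5 CPM. The 5 fetal liver genes had a median of 0.43, with Afp at 261 ± 94.3 CPM in Cre-miR122 livers and 135 ± 23.5 CPM in Cre livers, and the 12 hepatocyte genes one of 0.16 (0.058 when Cre replicate 11 was left out and 0.099 when Cre-miR122 replicate 1 was).

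Among 13028 other genes of at least 1 CPM, those whose log2 CPM was most like the mean profile of the 8 erythroid genes over the 6 libraries included Trim10 of the erythroid lists. Trim10, needed for the end of erythroid differentiation, ranked 2 (Pearson r = 0.99) with 19, 32 and 32 counts in Cre-miR122 livers and 11, 27 and 48 in Cre livers. Others among the first 8 were Mfsd4b1, Inpp1, Stub1, Polr3g, Lrrk1 and Ces1g, with r of 0.98 to 0.99. Of these, Stub1 spanned only 1.2-fold and Ces1g, a hepatic esterase gene, 2.51-fold. Bpgm, the bisphosphoglycerate mutase of red cells, ranked 50 (r = 0.94), while Tal1 and Tfrc had r of -0.22 and -0.15. All these values rest on 6 points that share their libraries, so many genes can reach a high r, and they are a description only.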

How the data were processed

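Liver messenger RNA was measured in 6 libraries, 3 per vector, grouped by sample title. The authors deposited an unnormalized table of whole read counts, with each gene's exon length. Tools named in the submitters' processing notes were STAR (2.7.9a) and featureCounts (2.0.1), with the build GRCm38, also mm10. Strand use and the handling of reads that fit several genes or copies are not stated there. A further 5 count columns fit no sample label and stayed unused.

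Counts were tested with the edgeR 4.0.16 quasi-likelihood F test in R 4.3.3 (TMM scaling, filterByExpr, group alone, two-sided, Benjamini-Hochberg over all 14374 genes tested, threshold 0.05; Cre-miR122 minus Cre). Standard errors came from the F statistic. The common biological coefficient of variation was 11.8%. CPM used TMM-scaled library sizes; TPM used the table's gene length. Log2 CPM had a prior count of 2. Alternatives were other scalings and filters, DESeq2 1.42.0, limma-voom (limma 3.58.1), robust dispersion, summed globin pairs, globin rows left out, a threshold of 0.1, and leaving out each library. The tools were checked on simulated counts with known changes, drawn with the common coefficient of variation. That check does not measure power for genes of wider spread, such as the globins, or for changes smaller than those simulated. Intervals and limits cover counting error only.

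The 9 genes and the 14 lists (167 entries, 3 with no row here, 3 matched by an older symbol) were chosen with earlier results of these data known. Genes named are the 9, the 3 most abundant of each list, a fixed set (Ahsp, Hbb-y, Hbb-bh1, Hba-x, Epo, Erfe, Kit, Tfrc, Alas1, Mki67, Afp) and the 8 genes most like the erythroid profile; Hbb-bh2, Bpgm, Tal1 and Kel were added after values were seen. Ahsp was not analysed here, and a few rule-picked genes are left unreported.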

Additional observations from a re-analysis of the deposited data

How the results depend on the processing

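Of 124 recomputed log2 fold changes of the 8 tested erythroid genes, 113 kept their direction, 11 turned and 0 passed the threshold. Without Cre replicate 10 the globins and Alas2 turned (Hbb-bs -0.20, Hbb-bt -0.26, Hba-a1 -0.15, Hba-a2 -0.041, Alas2 -0.089). Without Cre replicate 12 the same 5 stood at 0.52, 0.55, 0.50, 0.34 and 0.53. Without Cre-miR122 replicate 2 Hbb-bs was at -0.011 and Klf1 at 0.023. Slc4a1 turned to 0.055 without Cre-miR122 replicate 1, 0.020 without Cre replicate 11, 0.29 without Cre replicate 12 and 0.084 with limma-voom, and was at -0.42 without Cre replicate 10. Klf1 was at -0.17 without Cre-miR122 replicate 1. Epor kept its direction in all 16 alternatives, its adjusted p lying between 0.454 and 0.999. Genes called over the whole table numbered 0, but 2 with no filter, which tests 23347 genes, and 3 with DESeq2; none was an erythroid or list gene. Leaving out each library gave 0 and 0 calls at the lowest and highest.

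The globin share was 0.0525% in Cre-miR122 livers and 0.0487% in Cre livers without the 10 most abundant other genes, which shrinks the denominator. Leaving out a library gave 0.0360% to 0.0426% in Cre-miR122 livers and 0.0284% to 0.0448% in Cre livers. Of the 8 genes most like the erythroid profile, 1 stayed among the first 8 by Spearman, 2 with group means subtracted and 0 with the profile of the non-globin members; the cause was not tested. Depth limits Gata1 and Epo, with at most 17 counts. No paired analysis was possible because the groups share no replicate numbers.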
